A study of Mus musculus with 15 samples.

Results

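Methylation of 10 genes whose products silence ribosomal DNA or build the nucleolus was examined in sperm DNA of the mouse. The genes were Baz2a, Smarca5, Kdm2b, Mybbp1a, Ncl, Npm1, Fbl, Nop56, Nop58 and Nolc1, and a CpG was counted for a gene when it lay within its RefSeq span or 2 kb on either side. Of the 204492 CpGs listed, 58 met this rule, at 6 of the 10 genes. The libraries came from sperm of male C57BL/6 mice of generation G1, 7 labelled Control for diet and 8 labelled PR, which the design text gives as protein restricted. Whether the sampled males or a parent ate the diet is not in the labels, and neither is the mouse, litter or batch behind each library. The assay was reduced representation bisulfite sequencing (RRBS), which reads methylated cytosines in short fragments cut by MspI at CCGG.

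Ribosomal RNA genes are present in many copies, and part of them is kept silent in each cell. Baz2a (also called Tip5) and the ATPase Smarca5 (Snf2h) form the nucleolar remodelling complex NoRC, which brings DNA methyltransferases and histone deacetylases to ribosomal DNA. Kdm2b is a histone demethylase with a zinc finger that binds unmethylated CpG islands, and it has been described as a repressor of ribosomal RNA genes. Mybbp1a is a nucleolar protein tied to repression of those genes. Ncl (nucleolin) and Npm1 (nucleophosmin) are abundant nucleolar chaperones, Fbl (fibrillarin), Nop56 and Nop58 are core proteins of the box C/D particles that modify ribosomal RNA, and Nolc1 (Nopp140) is a chaperone of such particles. These genes are broadly expressed, and expression was not measured here.

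No listed CpG lay near a start site of these genes. Baz2a, Mybbp1a, Npm1 and Fbl had no listed CpG at all, and the 58 CpGs of the others lay between 2316 and 43417 bp from the nearest RefSeq start site. RefSeq promoter windows of 300 bp (250 before to 50 after a start, build GRCm38.p6) were at hand for 8 of the 10 genes, all except Npm1 and Fbl. All 11 windows held the MspI site CCGG, which reads alike on both strands, and 17 to 49 CpGs each, and 0 of the 11 held a listed CpG. Over all 32851 windows 52.8% held CCGG, and 0.980% held a listed CpG, or 1.46% of those with CCGG, so most promoters with a cut site have none. No position in the files has fewer than 11 methylated reads in any library, so one with few or no methylated reads does not appear, and a missing row gives no level.

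The windows before 4 start sites are shown for the silencing genes, to display the cut sites from which RRBS fragments could arise where no CpG was listed. Each is the 250 bases 5′ of the start on the strand of the gene, from RefSeq, with CCGG in capitals. Baz2a is at chr10:128092533-128092782 on the plus strand, with 20 CpGs and 3 CCGG. Smarca5 is at chr8:80739460-80739709 on the minus strand, with 29 CpGs and 2 CCGG. The first start of Kdm2b is at chr5:122989100-122989349 on the minus strand, with 27 CpGs and 3 CCGG, and the second at chr5:122988508-122988757, with 12 CpGs and 1 CCGG.
Baz2a: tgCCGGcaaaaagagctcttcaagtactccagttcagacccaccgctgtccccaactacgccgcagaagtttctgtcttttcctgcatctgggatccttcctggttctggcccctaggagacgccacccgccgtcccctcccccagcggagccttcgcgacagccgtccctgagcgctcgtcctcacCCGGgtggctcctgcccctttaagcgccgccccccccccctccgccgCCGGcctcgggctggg
Smarca5: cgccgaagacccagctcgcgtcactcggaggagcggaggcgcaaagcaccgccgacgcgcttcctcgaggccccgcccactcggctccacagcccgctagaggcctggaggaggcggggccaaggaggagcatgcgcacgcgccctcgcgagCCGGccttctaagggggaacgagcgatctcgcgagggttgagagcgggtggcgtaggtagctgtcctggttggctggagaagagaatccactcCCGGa
Kdm2b first start: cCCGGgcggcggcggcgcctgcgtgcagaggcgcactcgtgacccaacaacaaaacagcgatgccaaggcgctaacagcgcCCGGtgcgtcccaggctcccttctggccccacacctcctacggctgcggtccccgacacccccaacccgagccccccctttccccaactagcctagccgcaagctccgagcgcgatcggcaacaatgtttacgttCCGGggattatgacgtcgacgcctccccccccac
Kdm2b second start: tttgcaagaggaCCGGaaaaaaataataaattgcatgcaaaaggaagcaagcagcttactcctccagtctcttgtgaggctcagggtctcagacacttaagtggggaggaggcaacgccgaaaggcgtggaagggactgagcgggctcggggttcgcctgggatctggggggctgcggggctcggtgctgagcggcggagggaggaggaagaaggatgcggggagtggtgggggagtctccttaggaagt

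The number of listed CpGs per gene varied widely. Kdm2b, the longest at 118607 bp, held 39, Nolc1, at 9697 bp, held 9, Smarca5 held 5, Ncl and Nop56 held 2 each, and Nop58 held 1. Among protein coding genes, 28.1% of those under 12 kb, 67.8% of those from 12 to 50 kb and 93.2% of longer ones had a listed CpG, and the members had one at 2 of 5, 3 of 4 and 1 of 1 in these classes. Baz2a, 37934 bp long, was the one member without rows over 12 kb.

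Most listed CpGs counted for these genes were almost fully methylated in sperm DNA. Positions with few methylated reads are not listed, so this does not describe all CpGs of the genes. Of the 58 CpGs 53 had a mean of at least 90% over the 15 libraries (91.4%, against 89.7% of all listed CpGs), and their median was 98.1%, against 98.2% for all. The 5 CpGs under 90% were all in Kdm2b. No difference between the diets passed the test at these genes. The quasi-binomial test called 0 of 58 CpGs and 0 of 6 genes at an adjusted p under 0.05, where the background was 0% of 204492 CpGs and 0% of 20804 genes. At an unadjusted p under 0.05 there were 4 of the 58 CpGs, or 6.90%, against 3.79% of all CpGs, 3 of them higher in PR sperm (background 1.89%) and 1 lower (background 1.9%), and 0 of the 6 genes, against 3.06% of all genes. At an unadjusted p under 0.05 limma on percentages had 5 of the 58, against 9320 of all 204492 CpGs. With limma on logit values there were 4, against 9321, and neither run called any CpG. Of the 58, 27 were higher and 30 lower in PR sperm, and 1 was equal. The median difference was -0.04 percentage points at these CpGs and 0 at all CpGs.

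**Figure D1:**
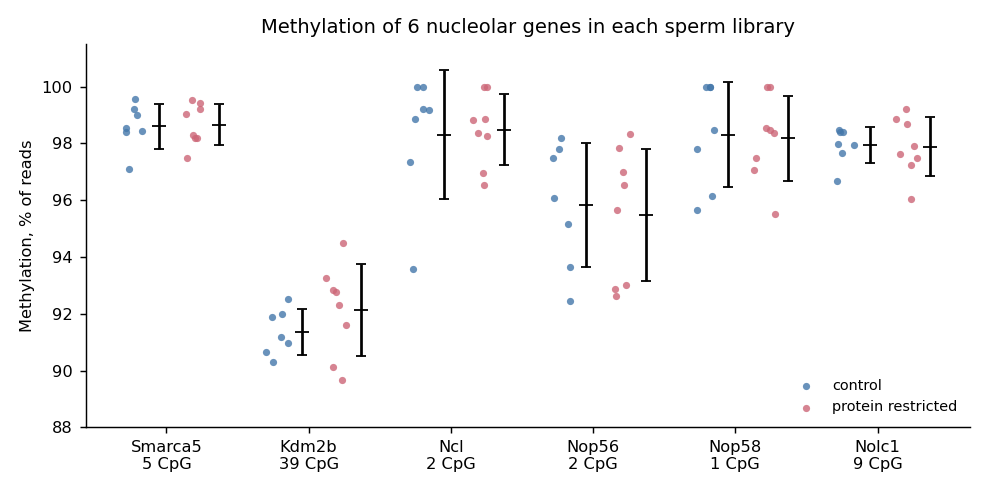
Methylation of the 6 genes with listed CpGs, as methylated over all reads in percent (vertical axis, from 88% up), with 1 point per library and the mean ± SD beside the points. Control libraries are blue and PR libraries red. In every gene the ranges of the diets overlap, and Kdm2b sits lowest, between 89.7% and 94.5%.

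The level of a gene in a library was taken as methylated over total counts, summed over its CpGs. Smarca5 (chromosome 8, 80699943 to 80739459), the ATPase of NoRC, ranged from 97.1% to 99.6% in control libraries with a median of 98.6%, and from 97.5% to 99.5% with a median of 98.7% in PR libraries. The ranges overlapped almost entirely. Means were 98.6% ± 0.791 (SD, n = 7) and 98.7% ± 0.732 (SD, n = 8), 0.0576 percentage points apart (95% interval -0.785 to 0.929, exact permutation test, two-sided, p = 0.885). Its 5 CpGs lay in 2 groups of close neighbours, which can share reads, 9269 to 9282 bp and 30030 to 30069 bp from the start site, with means of 98.1% to 99.5%.

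One Smarca5 CpG had the smallest quasi-binomial p of the 58. At 80709390 every PR library was at 100%, while control libraries ranged from 90.5% to 100% with a median of 98.3% and 3 of 7 at 100%. The difference was 2.35 points (95% interval 0.444 to 4.90), and the quasi-binomial test gave p = 0.00925 before and 1 after adjustment (exact permutation p = 0.0256). The interval and the permutation p come from the same libraries, at a CpG singled out by its p, and are not separate support. The difference rested most on control replicate 2, at 90.5%, and was 1.15 points in its absence. The neighbour at 80709429, 39 bp away, was at 99.1% ± 1.09 in control and 98.5% ± 2.21 in PR sperm, in the other direction. The CpGs at 80730177, 80730184 and 80730190 were at 98.2%, 99.8% and 98.3% in control and at 97.9%, 99.2% and 98.3% in PR sperm, with unadjusted p-values of 0.881, 0.267 and 0.845 by the quasi-binomial test.

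Kdm2b (chromosome 5, 122870664 to 122989270, minus strand) had the lowest level of the 6 genes, and its CpGs covered the widest range of means, from 54.6% to 100%. Between libraries its SD within diets was 1.30 points, below that of Nop56 (2.27), Ncl (1.79) and Nop58 (1.67). Those genes had 40 to 199 reads per library, and Kdm2b 944 to 1661. Relative to counting error, the spread of Kdm2b was the largest of the 6 genes (dispersion 2.77, described below). Its counts were summed over 39 CpGs of unlike levels, some close enough to share reads. Those of the other genes came from 1 to 9 CpGs, so the dispersions are not like for like. Control libraries ranged from 90.3% to 92.5% with a median of 91.2%, and PR libraries from 89.7% to 94.5% with a median of 92.5%. The highest and the lowest library were both PR, replicates 6 and 8. Means were 91.4% ± 0.800 (SD, n = 7) and 92.1% ± 1.61 (SD, n = 8), and the difference of 0.770 points did not pass (exact permutation p = 0.273, 95% interval -0.696 to 2.24). Of its CpGs 20 were higher and 18 lower in PR sperm.

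The summed level of Kdm2b mixes CpGs of different depth. The 5 CpGs under 90% took between 14.7% and 27.1% of its reads, 14.7% in PR replicate 6, whose summed level was the highest. With each CpG given equal weight, control sperm was at 93.9% ± 0.529 (SD, n = 7) and PR sperm at 94.7% ± 0.879 (SD, n = 8), a difference of 0.786 points (exact permutation p = 0.0626). At the 34 CpGs of at least 90%, the summed levels were 97.9% ± 0.360 (SD, n = 7) and 98.2% ± 0.880 (SD, n = 8).

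Among the listed CpGs of Kdm2b, methylation was lowest at the 3 closest to its first starts, though none lay nearer than 2316 bp. These 3 CpGs were 2908 to 3015 bp into the gene from the first start and 2316 to 2423 bp from the second. Their means were 54.6%, 67.9% and 60.9% over the 15 libraries. From 6922 bp on, the CpGs were at 92.9% or more, apart from one at 83.1%, 39061 bp from the first start, and one at 74.4%, 73063 bp from it. The listed CpG nearest to its internal starts was 15302 bp away. The CpG at 83.1% lies also in the span of the lncRNA gene Gm33118. CpGs under 70% made up 3 of the 58, or 5.17%, against 3.22% of all listed CpGs. The 3 CpGs lie within 108 bp of each other and have the same mean coverage of 53.8 reads, so they can share reads and are not independent.

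**Figure D2:**
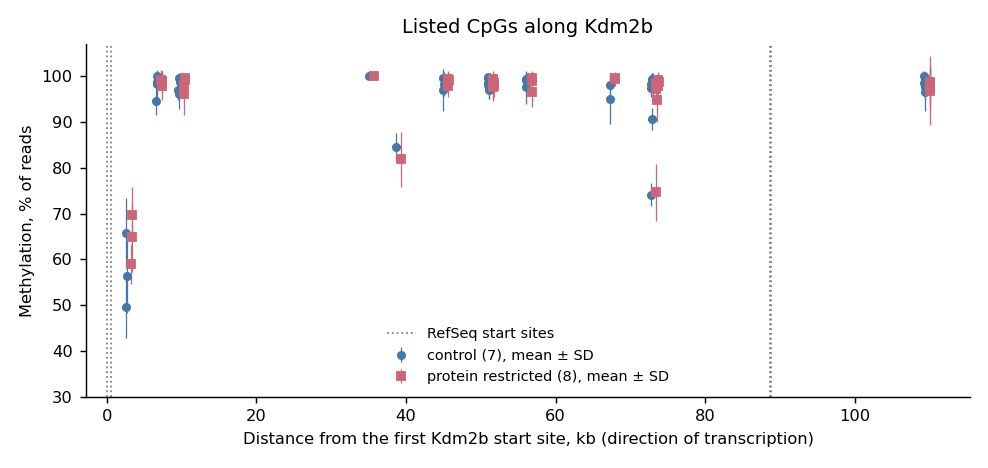
Methylation in percent (vertical axis) of the 39 listed CpGs of Kdm2b against their distance in kb from the first start site, in the direction of transcription. Circles are control means and squares PR means, offset to either side for display, bars are SD, and dotted lines are RefSeq start sites. The 3 CpGs nearest the first starts average 54.6% to 67.9% over all libraries, while most others sit above 90%.

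The 3 partly methylated CpGs closest to the first starts had higher means in PR sperm, none of them past the adjusted test. At 122986191, the member CpG with the lowest mean, control libraries ranged from 40.6% to 59.3% with a median of 46.9% and PR libraries from 54.2% to 65.6% with a median of 59.6%. In control sperm 5 of 7 libraries lay below the lowest PR library, and the ranges overlapped. Means were 49.5% ± 6.74 (SD, n = 7) and 59.0% ± 4.36 (SD, n = 8), a difference of 9.49 points (95% interval 3.21 to 15.8), with an exact permutation p of 0.00839 and a quasi-binomial p of 0.0275 before and 1 after adjustment. This was the largest difference among the 58 CpGs. Leaving out each library in turn, it lay between 8.01 and 11.1 points.

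At 122986084, the CpG of Kdm2b with the widest spread within diets, control libraries ranged from 46.9% to 70.3% with a median of 57.5% and PR libraries from 52.9% to 75.0% with a median of 65.4%. Means were 56.4% ± 7.96 (SD, n = 7) and 64.8% ± 7.57 (SD, n = 8), and the difference was 8.47 points (exact permutation p = 0.0561, 95% interval -0.156 to 17.1). At 122986098 means were 65.7% ± 7.70 (SD, n = 7) and 69.8% ± 6.03 (SD, n = 8), 4.06 points apart (exact permutation p = 0.285). Summed over the 3 CpGs, a grouping made after their values were seen and so not tested, control libraries ranged from 49.5% to 66.1% with a median of 56.9% and PR libraries from 58.6% to 67.5% with a median of 65.2%. Among the 2318 listed CpGs with a mean from 50% to 70% and a mean coverage from 40 to 70 reads, 5.0% differed between diets by more than 8 points and 2.89% had an unadjusted p under 0.05. These limits and the cut of 8 points were not part of the planned tests. Of the 3 CpGs, 122986098, at 4.06 points, lies under that cut.

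The spread between libraries at these CpGs was about that of counting reads, which assumes independent molecules. With a mean of 53.8 reads per library, counting error alone gives an SD of 7.15 points at 122986191 and 7.01 at 122986084, where the SD within diets was 5.58 and 7.75 points. Depth was lowest in PR replicate 6, with 24 reads, and the lowest count of methylated reads at 122986191 in any library was 13, close to the 11 below which no listed position falls.

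**Figure D3:**
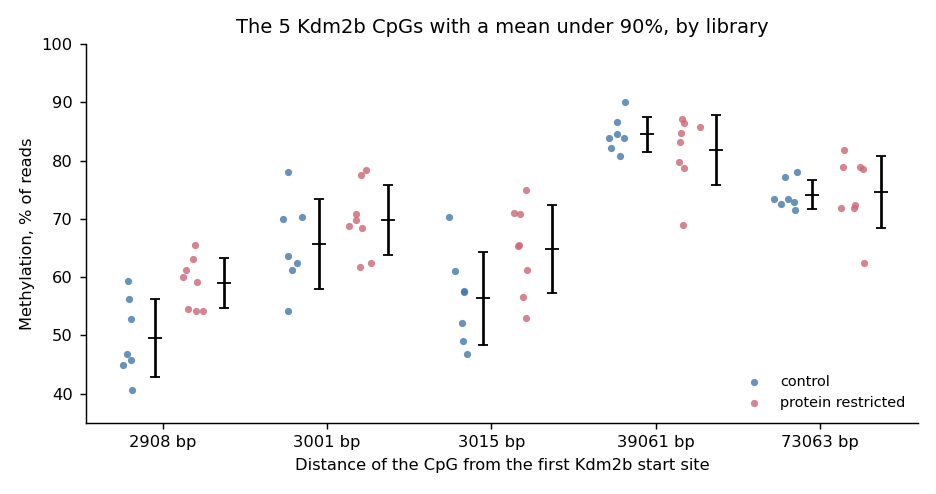
Methylation in percent (vertical axis) at the 5 Kdm2b CpGs with a mean under 90%, ordered by distance from the first start site, with 1 point per library and mean ± SD beside the points. At 2908 bp the control libraries lie between 40.6% and 59.3% and the PR libraries between 54.2% and 65.6%, and at the CpGs 39061 and 73063 bp away the diets overlap widely.

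Elsewhere in Kdm2b, the partly methylated CpG at 122950038 had a lower mean in PR sperm, and that at 122916036 differed by 0.513 points. The first averaged 84.5% ± 3.01 among control libraries (SD, n = 7) and 81.8% ± 6.06 among PR libraries (SD, n = 8, exact permutation p = 0.339), and the second at 74.1% ± 2.49 and 74.6% ± 6.24 (exact permutation p = 0.867, n = 7 and 8). Control libraries averaged 94.5% ± 2.96 at 122982177 and PR libraries 99.2% ± 2.21, 4.70 points apart (95% interval 1.75 to 7.46), with 7 of 8 PR libraries at 100% and 1 of 7 control libraries. Its quasi-binomial p was 0.0101 before and 1 after adjustment (exact permutation p = 0.00637). It was picked for the smallest quasi-binomial p among Kdm2b CpGs higher in PR sperm, so the interval and permutation p follow that choice. Coverage there was 14 to 34 reads. Its neighbours 122982013, 122982049 and 122982053 differed by -1.28, 0.298 and -0.320 points. On the lower side, the CpG at 122879439 was at 100% in every control library and at 97.4% ± 3.86 in PR sperm, with a quasi-binomial p of 0.0434 before and 1 after adjustment. The exact permutation p of that CpG was 0.2, and the lowest coverage was 12 reads. The CpG at 122953684 was at 100% in all 15 libraries.

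Ncl (chromosome 1, 86344719 to 86359455), the gene of nucleolin, had a listed CpG at 86350959 and another at 86355699. Control libraries ranged from 93.6% to 100% with a median of 99.2%, and PR libraries from 96.6% to 100% with a median of 98.6%. Control replicate 5 stood alone at 93.6%, with the other control libraries at 97.3% or more. Means were 98.3% ± 2.26 (SD, n = 7) and 98.5% ± 1.25 (SD, n = 8), a difference of 0.17 points (exact permutation p = 0.881, 95% interval -1.65 to 2.20). At 86350959 means were 97.3% and 98.8%, and at 86355699 99.3% and 98.0%, with unadjusted p-values of 0.522 and 0.298 (quasi-binomial test). These differences depended on single libraries. Without control replicate 5 the difference at 86350959 was -0.211 points and that of the gene -0.616, and without PR replicate 6 the difference at 86355699 was -0.463 in place of -1.28.

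Of the box C/D particle genes, Fbl had no listed CpG, and those counted for Nop56 lay in another gene. Both Nop56 CpGs, at 130279722 and 130279750 on chromosome 2, were past the end of its span (130274367 to 130279313) and within that of Idh3b, a subunit of the mitochondrial isocitrate dehydrogenase. Control libraries ranged from 92.5% to 98.2% with a median of 96.1%, and PR libraries from 92.6% to 98.3% with a median of 96.1%. Means were 95.8% ± 2.19 (SD, n = 7) and 95.5% ± 2.33 (SD, n = 8), -0.346 points apart (exact permutation p = 0.769, 95% interval -2.90 to 2.23). The CpG at 130279750 was the lower of the pair in both diets, at 93.2% and 93.1%, against 98.5% and 97.9% at 130279722, with unadjusted p-values of 0.778 and 0.578 (quasi-binomial test).

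Nop58 (chromosome 1, 59684961 to 59711510), the partner of Nop56 in these particles, had 1 listed CpG, at 59706578, 21572 bp into the gene and covered by 75 reads on average. Control libraries ranged from 95.7% to 100% with a median of 98.5%, and PR libraries from 95.5% to 100% with a median of 98.4%. The diets could not be told apart, at 98.3% ± 1.85 (SD, n = 7) and 98.2% ± 1.49 (SD, n = 8), with a difference of -0.120 points (exact permutation p = 0.876, 95% interval -2.01 to 1.76).

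Nolc1 (chromosome 19, 46075847 to 46085543), the chaperone of these particles, had 9 CpGs in 2 groups of neighbours, 7760 to 8192 bp from its start. Control libraries ranged from 96.7% to 98.5% with a median of 98.0%, and PR libraries from 96.0% to 99.2% with a median of 97.8%. Means were 97.9% ± 0.631 (SD, n = 7) and 97.9% ± 1.03 (SD, n = 8), -0.0477 points apart (exact permutation p = 0.922, 95% interval -1.03 to 0.911). The lowest and most variable of its CpGs, at 46083729, was at 93.9% ± 3.61 in control and 95.1% ± 3.6 in PR sperm. At 46083607 all 8 PR libraries and 4 of 7 control libraries were at 100%, the control mean being 98.6%, and at 46083639 6 of 7 control and 4 of 8 PR libraries were at 100%, with means of 99.6% and 96.6%. Neither had an unadjusted p under 0.05 (0.0726 and 0.0855, quasi-binomial test).

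**Figure D4:**
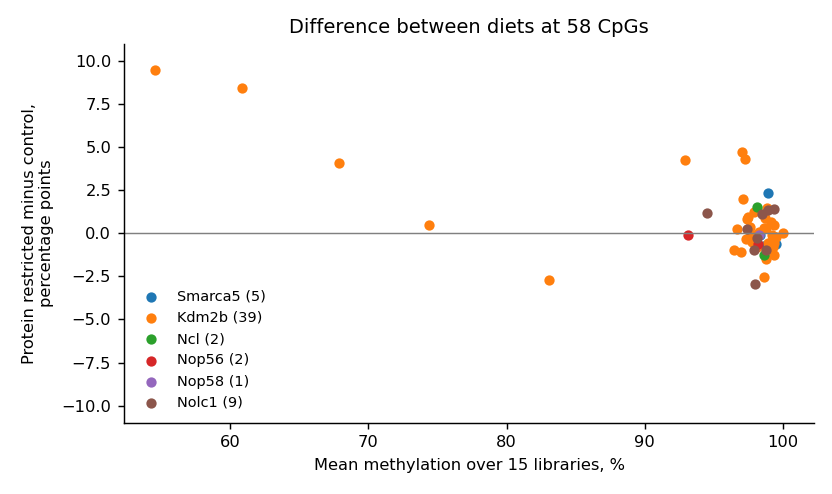
Difference between the diet means in percentage points (vertical axis, PR minus control) against mean methylation over the 15 libraries in percent (horizontal axis), with 1 point for each of the 58 CpGs, coloured by gene. The highest point is the Kdm2b CpG at 54.6%, 9.49 points higher in PR sperm, and none passed the adjusted test.

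Spread beyond counting error was rare at these CpGs. The dispersion, which is about 1 when libraries vary as much as counting reads would make them, had a median of 0.944 over the 58 CpGs and 0.955 over all. It exceeded 2 at 2 of the 58 CpGs, or 3.45%, against 2.86% of all. Those were 86350959 in Ncl, at 2.38, and 122879415 in Kdm2b, at 2.41, a CpG named only for this value. The gene level of Kdm2b had a dispersion of 2.77, while the share of its reads at CpGs under 90% ran from 14.7% to 27.1% between libraries. Whether that share or reads common to neighbouring CpGs account for the value was not tested.

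Kdm2b, the member with at least 10 listed CpGs, was set beside ribosomal DNA, on which the silencing factors act. The ribosomal sequence was Rn18s-rs5 (chromosome 17, 39846354 to 39848202), whose summed level ran from 28.8% to 53.8% over the libraries. Over the 15 libraries Pearson's r with the level of Kdm2b was -0.236 (permutation p = 0.400) and Spearman's rho -0.189 (permutation p = 0.499), and with this single relation computed the adjusted p is the same. Without the 2 libraries farthest from the median of ribosomal DNA, control replicates 3 and 5, r was -0.488. It was -0.0635 within control (exact permutation p = 0.9, n = 7) and -0.656 among the PR libraries (exact permutation p = 0.0771, n = 8). With equal weight per CpG of Kdm2b the sign turned, to an r of 0.183 (permutation p = 0.514). None of the p-values given was under 0.05, and the r without those 2 libraries was not tested.

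**Figure D5:**
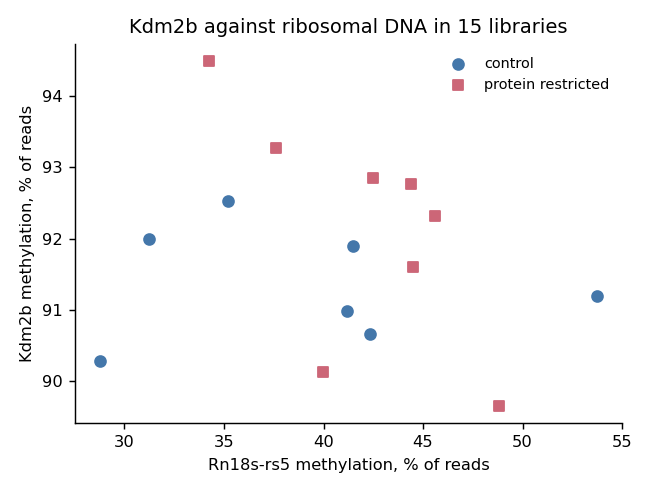
Summed methylation of Kdm2b (vertical axis, percent) against that of Rn18s-rs5 (horizontal axis, percent) in the 15 libraries, circles for control and squares for PR. The points show no common slope, with r at -0.236 over all libraries.

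The genes whose level followed that of Kdm2b most closely over the 15 libraries, among 1501 genes with at least 20 listed CpGs, were Creb5 (r = 0.867), Hlf (r = 0.794) and Gm42072 (r = 0.780), none of which shares a CpG with it. The median r over those genes was -0.01 and the lowest -0.821, and the libraries share depth and read shares, so these are descriptions of 15 libraries only.

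Other genes of the same pathways were counted in the same way. Of 30 further factors of ribosomal DNA silencing and its chromatin, 24 held listed CpGs, with a median level of 97.7%. The quasi-binomial test called none, and 12 were higher and 12 lower in PR sperm, with a median difference of -0.03 points against -0.01 for all 20804 genes. Hdac2, a histone deacetylase, was the one with an unadjusted p under 0.05 (1 of 24 higher, background 1.61%), at 97.9% ± 1.0 in control and 98.9% ± 0.788 in PR sperm (p = 0.0432, adjusted p of 1, quasi-binomial test). The lowest levels in this list were at Ehmt1, a histone methyltransferase, and Cbx1, a heterochromatin protein. Ehmt1, with 8 listed CpGs, was at 69.0% ± 4.20 in control and 68.1% ± 7.44 in PR sperm. Cbx1 was at 71.3% ± 8.16 and 67.9% ± 6.65 at its 1 listed CpG, which does not describe the gene as a whole.

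Of 48 further nucleolar and small nucleolar particle genes, 30 held listed CpGs, with a median level of 97.9%, 9 higher and 21 lower in PR sperm and a median difference of -0.24 points, beside 10317 higher and 10471 lower over all genes. The quasi-binomial test called none. Nhp2, a core protein of the box H/ACA particles, was the one with an unadjusted p under 0.05 (1 of 30 lower, background 1.45%), at 99.2% ± 1.33 in control and 95.4% ± 3.26 in PR sperm at its 1 CpG (p = 0.0122, adjusted p of 1, quasi-binomial test). The lowest level was at Utp3, a processome factor, at 72.1% ± 7.65 in control and 69.6% ± 7.67 in PR sperm at its 1 listed CpG.

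Depth and identity of the libraries bear on all these values. Counts summed over all listed CpGs ran from 6650912 to 11841657 per library, with a median coverage of 26 to 42 reads, and mean coverage of the member CpGs ran from 17.1 to 81.9 reads. No molecular identifiers are named in the labels, so reads may not be independent molecules. Regions upstream of Meg3 and Rasgrf1, known to be methylated in sperm, were at 98.0% (3 CpGs) and 92.5% (4 CpGs). Upstream of H19 0 CpGs were listed. Of all listed CpGs 89.7% had a mean of at least 90%, and positions with few methylated reads are not listed. These levels therefore cannot check the origin of the DNA. No pair of libraries held identical counts. Title numbers form runs that do not cross diets, so any batch they might mark cannot be told apart from diet.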

How the data were processed

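Sperm DNA of 15 libraries was profiled by RRBS. The deposited files give raw counts of methylated reads and of all reads per CpG, not normalized. Bismark 0.7.12, Bowtie2 2.1.0 and mm10 are named, without roles, in the submitters' processing notes. No further step is named in the sources used here. No position has under 11 methylated reads in any library, so a coverage minimum of 10 removes nothing.

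Gene spans, start sites and promoter sequences came from RefSeq tables of GRCm38.p6 (mm10), matched by symbol for 10 of 10 genes. Exons and introns were not annotated here. Counts at each CpG, and counts summed over each gene with 2 kb flanks, were tested between diets with a quasi-binomial logistic model (F test, 13 residual degrees of freedom, dispersion at least 1), fitted across all 204492 CpGs and all 20804 genes with a listed CpG, with Benjamini-Hochberg adjustment at 0.05. It was tested on simulated data. Gene levels and single CpGs were also compared with the exact two-sided permutation test over 6435 splits (smallest p 0.000155), which was inverted for 95% intervals. Correlations used 100000 permutations. P-values of members were not adjusted over the member list. limma 3.58.1 in R 4.3.3, equal weights, a minimum of 20 reads, no flanks, summed title runs and leaving out each library were alternatives. For the relation to ribosomal DNA, 5 kb on either side of Rn18s-rs5 was a further one. Python 3.11.15, numpy 2.4.6 and scipy 1.17.1 were used.

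CpGs were named as follows: all of a gene with 5 or fewer, otherwise the lowest mean, the largest SD within diets and the smallest p in each direction; the remaining Kdm2b CpGs described were chosen after their values were seen. The members and lists were chosen with earlier results of these data known. Replicates are numbered in accession order and pair nothing. Nothing in the labels ties libraries to mice, and p-values therefore measure spread among libraries, which may be technical.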

Additional observations from a re-analysis of the deposited data

Results flagged for a closer look

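In 46 groups of libraries examined (the 6 gene levels, the named CpGs of the genes with more than 1, and Rn18s-rs5, each within a diet), 8 had one library standing apart from the rest by Dixon's ratio of gap to range. About 1 in 20 such groups would be marked by chance if the values were normal and the groups independent. Many of these percentages are at 100%, and gene levels include their own CpGs, so the rate here is not known. At Ncl control replicate 5 was at 93.6%, with the others at 97.3% to 100%, and at its CpG 86350959 the same library was at 86.8%, with the others at 96.5% or more. At the Ncl CpG 86355699 PR replicate 6 was at 92.3%, with the others at 97.7% or more. In Smarca5, control replicate 2 was at 90.5% at 80709390 (others 97.1% or more) and at 98.4% at 80730184 (others all 100%), and PR replicate 8 was at 96.1% at 80730177 (others 97.6% to 98.8%). At the Kdm2b CpG 122982177 PR replicate 4 was at 93.8% and at the Nolc1 CpG 46083639 control replicate 2 at 96.9%, with the others at 100%. Where all others are at 100%, any lower value stands apart in this way.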

How the results depend on the processing

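The counts of calls were 0 for member CpGs, member genes, all CpGs and all genes under each alternative run: each of the 15 libraries left out, title runs summed, at least 20 reads in every library, limma on percentages and on logit values and, for genes, no flanks. At an unadjusted p under 0.05 the quasi-binomial test had between 2 and 6 member CpGs and between 7423 and 7682 of all CpGs when a library was left out, and 2 and 2608 with title runs summed (3 against 4, smallest exact p 0.0286). Differences near 0 changed sign: with title runs summed they were -0.200 points at Smarca5, 0.0227 at Nop56, 0.0934 at Nolc1 and 0.330 at the Nop56 CpG 130279750, with at least 20 reads in every library -0.302 at Smarca5 (3 CpGs left), and with equal weight 0.0296 at Nolc1. With each library left out they ranged from -0.193 to 0.228 at Smarca5, -0.616 to 0.452 at Ncl, -0.907 to 0.0620 at Nop56, -0.561 to 0.260 at Nop58 and its CpG and -0.259 to 0.217 at Nolc1. At single CpGs these ranges were -0.857 to 0.0687 (80730177), -0.505 to 0.219 (80730190), -0.211 to 1.98 (Ncl 86350959), -1.01 to 0.0111 (130279722) and -0.977 to 0.561 (130279750). Kdm2b stayed positive, from 0.433 to 1.12 points with a library left out. Its r with ribosomal DNA was 0.183 with equal weight and -0.479 to -0.1 with a library left out. The cause of the sign change was not tested. A run with 5 kb added on either side of Rn18s-rs5 was also made, and its r is not reported here. Without flanks the Nop56 CpGs drop out, and its difference has no value there. No paired analysis was possible because the labels give the diets no shared replicate numbers.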
